A study of Mus musculus with 6 samples.

Results

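Il6st and 6 further receptor genes of the interleukin 6 family (Il6ra, Lifr, Osmr, Il11ra1, Il27ra and Lepr) were read in sorted mouse bone marrow progenitors with and without an active form of Notch2. The genes were chosen by name. Il6st was singled out because its intensity was much lower in the cells with active Notch2, so its values, and those of the other receptors in the same comparison, are a description and carry no test. All probe sets annotated to exactly one of these symbols were taken, which gave 17 of the 45101 probe sets on the array, for 6 of the 7 genes. No probe set was annotated to Il11ra1 alone, and this gene was not analysed here. A probe set entered the fit over the whole table where it lay above the 40th percentile of its array on at least 3 of 6 arrays, and 6 member probe sets did so among 27424. These belonged to Il6st, Il6ra and Il27ra.

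Cells lacking lineage markers and Sca1 and carrying cKit, called myeloerythroid progenitors in the labels, were sorted from 6-week-old littermates. All mice carried Mx1-cre, a recombinase gene under an interferon-inducible promoter, and all were given polyIC 3 times (20 mcg per g), with cells taken 1 week after the last dose. ICN2-positive mice also carried Rosa-lsl-ICN2, which expresses the intracellular domain of Notch2 from the Rosa26 locus once the recombinase has cut out a stop cassette. ICN2-negative mice carried Mx1-cre alone and were treated alike. Each group had 3 arrays. The ICN2-negative samples were all female and the ICN2-positive samples all male, so in every difference below the effects of genotype and sex cannot be told apart. Separate animals are not stated for the replicates, and p-values and errors therefore cover no more than the spread among these arrays, part of which may be technical. The Mx1 promoter responds to interferon in many cell types, so recombination is not limited to the sorted cells.

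The receptors of this family work in complexes. Il6st encodes gp130, the signalling chain shared by interleukin 6, interleukin 11, interleukin 27, leukemia inhibitory factor and oncostatin M, and gp130 alone binds none of them tightly. Il6ra and Il11ra1 encode the chains that bind interleukin 6 and interleukin 11 and hand them to gp130, while Lifr, Osmr and Il27ra encode signalling chains that pair with gp130. Lepr encodes the leptin receptor, which resembles gp130 and signals as a complex of its own. Bound receptors activate the kinases Jak1, Jak2 and Tyk2, which phosphorylate STAT3, and Socs3 shuts the receptor down again. In bone marrow, interleukin 6 acts on early and myeloid progenitors, and Lepr is best known there as a gene of stromal cells.

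The promoters of Il6st and Il6ra are shown because these were the members whose brightest probe sets were both far lower in ICN2-positive cells. The sequences are from RefSeq (GRCm38.p6), 250 bases before to 50 bases after the annotated start, 5′ to 3′ on the strand of the gene. Il6st lies on chromosome 13 from 112464070 to 112506860 on the plus strand, with the window at chr13:112463820-112464119, and Il6ra on chromosome 3 from 89869324 to 89913196 on the minus strand, with the window at chr3:89913147-89913446. Capitals mark TGGGAA or its reverse complement TTCCCA, the core bound by RBPJ, the DNA-binding partner of Notch.
Il6st: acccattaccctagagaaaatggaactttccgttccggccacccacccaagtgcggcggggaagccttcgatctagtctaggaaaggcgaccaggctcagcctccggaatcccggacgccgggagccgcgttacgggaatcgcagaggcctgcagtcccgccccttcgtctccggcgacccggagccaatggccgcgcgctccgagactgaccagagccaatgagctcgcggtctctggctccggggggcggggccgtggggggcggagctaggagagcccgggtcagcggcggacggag
Il6ra: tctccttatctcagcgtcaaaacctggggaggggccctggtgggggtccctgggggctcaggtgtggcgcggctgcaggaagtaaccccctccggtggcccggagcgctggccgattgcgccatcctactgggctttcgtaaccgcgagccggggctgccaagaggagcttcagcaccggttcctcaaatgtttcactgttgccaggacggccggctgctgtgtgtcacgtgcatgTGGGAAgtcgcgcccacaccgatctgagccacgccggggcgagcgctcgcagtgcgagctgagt
The Il6st window held no such core, and the Il6ra window held 1, which began 14 bases before the annotated start. Of 32851 promoter windows of this length, 25.56% held at least 1. The letters TTCNNNGAA, a form of STAT site that reads the same on both strands, were in neither window and in 8.3% of all windows. No motif overlapped another. Both windows were rich in CpG, with 33 in Il6st and 25 in Il6ra against a median of 7 over all windows, and their GC content was 68.3% and 66.0% against a median of 52.7%. A match of letters is a description and does not show a bound site, and an absence says only that the letters are not in this window.

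Some facts of the arrays bear on what follows. ICN2-positive replicate 1 stood apart, with correlations across probe sets of 0.984 and 0.988 to the other arrays of its group, which correlated at 0.995 with each other. The ICN2-negative arrays correlated with one another at 0.994 to 0.995. The difference between 3′ and 5′ control probe sets, a measure of RNA integrity, was also highest on ICN2-positive replicate 1 for beta-actin, at 1.01 on the log2 scale where the other arrays lay at 0.71 to 0.85, and for 3 of the other 4 transcripts measured this way. The sorting marker Kit was alike in both groups, at 10.38 to 10.50 in ICN2-negative and 10.15 to 10.86 in ICN2-positive cells (log2 intensity, brighter probe set). Itgam, a lineage marker of myeloid cells, was below the 40th percentile on all 6 arrays. Cd3e, a marker of T cells, was above that percentile on 5 of 6 arrays. Cd3e read 6.14, 5.40 and 5.27 in ICN2-negative and 7.17, 7.52 and 6.16 in ICN2-positive cells. Notch2 was read by 2 probe sets: one lay at 6.49 to 6.62 in ICN2-negative and 7.29 to 7.52 in ICN2-positive cells, and the brighter one at 12.92 to 12.96 and 12.94 to 13.06. Whether either reads the transgene was not tested.

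Il6st, the shared signalling chain, was about 10-fold lower in ICN2-positive cells on its brightest probe sets. On the brightest, 1452843_at, ICN2-negative replicates 1 to 3 read 10.08, 10.77 and 10.71 and ICN2-positive replicates 1 to 3 read 6.18, 7.79 and 7.40 (log2 intensity). Every ICN2-positive array lay at least 2.29 below every ICN2-negative array, and replicate 1 was the lowest. The means were 10.52 ± 0.38 and 7.12 ± 0.84 (SD, n = 3), a difference of -3.40 ± 0.45 (limma standard error), or 10.5-fold lower. On the next, 1437303_at, the ICN2-negative arrays read 8.47, 8.93 and 9.17 and the ICN2-positive arrays 5.19, 5.75 and 5.47. These groups were separated by 2.71, and here the 3 ICN2-positive arrays lay close together. The means were 8.86 ± 0.36 and 5.47 ± 0.28, a difference of -3.38 ± 0.23, or 10.4-fold lower. The ICN2-positive values of 1437303_at lay near the 40th percentile of their arrays (5.26 to 5.30), with 2 of 3 above it, while those of 1452843_at all lay above it.

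The other probe sets of Il6st were dim and showed smaller differences. 1421239_at read 5.42, 5.46 and 5.52 in ICN2-negative and 5.26, 5.23 and 5.23 in ICN2-positive cells, a difference of -0.23 ± 0.07. 1460295_s_at, whose suffix marks a probe set that may read more than one gene, was above the 40th percentile on 1 of 6 arrays and was not in the fit. It read 4.89, 5.43 and 5.03 in ICN2-negative and 3.88, 4.06 and 3.86 in ICN2-positive cells, a difference of -1.19. All 4 Il6st probe sets thus had their 3 ICN2-positive values below their 3 ICN2-negative values, with differences from -3.40 to -0.23. Which part of the transcript each probe set reads was not analysed here.

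Il6ra, the chain that binds interleukin 6, was also lower in ICN2-positive cells on its brighter probe set. 1452416_at read 10.08, 10.43 and 10.38 in ICN2-negative and 6.19, 8.35 and 8.24 in ICN2-positive cells. The groups were separated by 1.73, and ICN2-positive replicate 1 lay more than 2 below the other arrays of its group. The means were 10.29 ± 0.19 and 7.59 ± 1.21 (SD, n = 3), a difference of -2.70 ± 0.59, or 6.50-fold lower. The second Il6ra probe set, 1422270_a_at, did not follow. It read 6.05, 6.25 and 6.27 in ICN2-negative and 6.10, 5.67 and 5.81 in ICN2-positive cells, so the groups overlapped, and the difference was -0.33 ± 0.14.

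Il27ra, the chain that joins gp130 to receive interleukin 27, was the only member read above the 40th percentile whose mean was higher in ICN2-positive cells. Its single probe set, 1449508_at, read 9.35, 8.70 and 8.54 in ICN2-negative and 9.63, 10.06 and 9.59 in ICN2-positive cells. The groups did not overlap, but the gap of 0.24 was smaller than the spread within the ICN2-negative group (SD 0.43). The means were 8.87 and 9.76, a difference of 0.90 ± 0.25, or 1.86-fold higher, which did not pass the threshold of the whole-table fit.

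**Figure D1:**
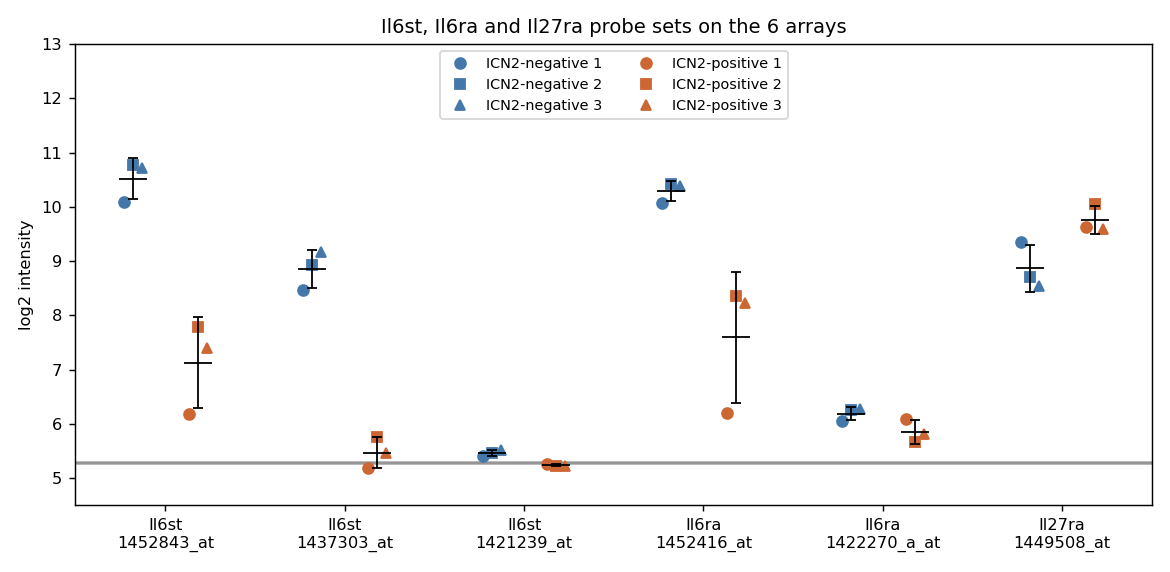
Log2 intensity (vertical axis) of the 6 member probe sets in the fit, by array; points are single arrays, horizontal bars with whiskers are the mean ± SD of 3, and the grey band is the range of the 40th percentiles of the 6 arrays (5.26 to 5.30). The first and second Il6st probe sets and the first Il6ra probe set are far lower in ICN2-positive cells, and Il27ra lies at 9.59 to 10.06 there against 8.54 to 9.35.

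Of the 6 member probe sets in the fit, 2 were past an adjusted p of 0.05 in limma over all 27424 probe sets, both of Il6st and both lower. Among all probe sets 0.988% were lower at that threshold, but Il6st was chosen on this contrast and nothing is read from the comparison. The groups did not overlap in 5 of the 6 and in 33.7% of all probe sets in the fit, and nothing is read from this either: 3 of the 5 were of Il6st, and 1421239_at entered the fit only through the ICN2-negative arrays. Ordered by difference from the most negative, the Il6st probe sets 1452843_at and 1437303_at stood at 27 and 29 of 27424, and Il6ra 1452416_at at 99. With each array left out in turn, 1437303_at remained past the threshold in all 6 fits and 1452843_at in 2 of 6, and Il6ra 1452416_at passed it only without ICN2-positive replicate 1.

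The receptors for leukemia inhibitory factor, oncostatin M and leptin were dim in both groups. None of the 3 Lifr, 3 Osmr and 4 Lepr probe sets entered the fit. A single value among these 60 was above the 40th percentile of its array, that of Lifr 1454984_at in ICN2-positive replicate 2. The brightest Lifr probe set, 1450207_at, read 4.57, 4.73 and 4.64 in ICN2-negative and 4.80, 4.56 and 4.93 in ICN2-positive cells. The most variable, 1454984_at, read 4.96, 4.63 and 3.89 against 3.50, 5.28 and 4.04, with the groups overlapping fully. The brightest Osmr probe set, 1418675_at, read 4.24, 4.24 and 4.37 against 4.17, 3.99 and 4.53. The brightest Lepr probe set, 1425873_a_at, read 4.49, 4.56 and 4.32 against 4.53, 4.41 and 4.64. Over all 10 probe sets the groups overlapped in each, and differences ran from -0.22 to 0.26. At this signal a difference in these receptors was not detectable, and the arrays do not show whether the transcripts were absent.

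**Figure D2:**
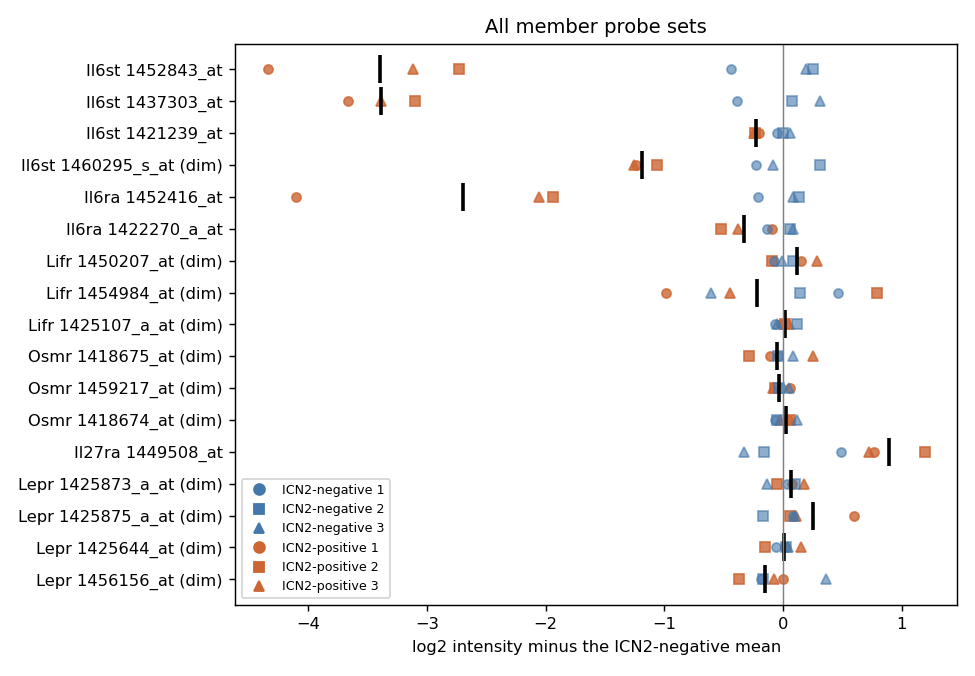
Each of the 17 member probe sets as log2 intensity minus its ICN2-negative mean (horizontal axis); points are arrays, the black mark is the mean difference, and "dim" marks the 11 probe sets left out of the fit. The 4 Il6st probe sets and Il6ra 1452416_at have all ICN2-positive points below all ICN2-negative points, and the Lifr, Osmr and Lepr points lie on both sides of 0.

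How the members varied within the groups depended on the probe set. After each group's mean was subtracted, the deviations of Il6st 1452843_at correlated with those of Il6ra 1452416_at at r = 0.95 over the 6 arrays, and with those of Il6st 1437303_at at 0.83. The correlation with Il27ra was -0.05. Between Il6st 1437303_at and Il6ra 1452416_at it was 0.65. The second Il6ra probe set, 1422270_a_at, ran the other way, at -0.60 with Il6st 1452843_at, -0.16 with Il6st 1437303_at and -0.76 with the brighter probe set of its own gene. These are descriptions over 6 arrays that share 2 group means, and ICN2-positive replicate 1 weighs heavily in them. Relative to the ICN2-negative mean, that array lay at -4.34 for Il6st 1452843_at and at -4.10 for Il6ra, while replicates 2 and 3 lay at -2.73 and -3.12 for Il6st and at -1.94 and -2.06 for Il6ra. Without replicate 1 the differences were -2.92 for Il6st 1452843_at, -3.24 for 1437303_at and -2.00 for Il6ra.

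Genes with the pattern most like Il6st over the 6 arrays were found by Pearson correlation with 1452843_at across 12118 other named genes, 1 probe set each. The 5 highest were Rgcc, a regulator of the cell cycle (r = 0.999), Ezr, which encodes the membrane linker ezrin, Sgpl1, the lyase for sphingosine 1-phosphate, Phyh, a peroxisomal hydroxylase, and Bcap31, a protein of the endoplasmic reticulum, all at r of at least 0.998. The size of their differences ranged widely, from -1.80 for Rgcc, -1.45 for Sgpl1 and -1.30 for Phyh to -0.24 for Ezr and -0.07 for Bcap31. Their correlations within groups were 0.98 to 1.00, which the choice by r over these same 6 arrays largely fixes. Il6ra stood at 174 in this order (r = 0.98). The 5 genes most like 1437303_at were Ryr1, Ly9, Selenom, Plxnb2 and Ccdc157, and none was shared, so the list depends on the probe set chosen.

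Markers of other cell types differed alongside these receptors, and their part in the result was not tested. In bulk samples, fewer cells of a type and less RNA per cell cannot be told apart. Of 10 markers of granulocyte-monocyte progenitors 9 were in the fit. All 9 had lower means and non-overlapping groups, where 33.7% of all probe sets in the fit did not overlap. None of the 9 passed the threshold (Gfi1, a transcription factor of granulocyte progenitors, differed by -2.91 ± 0.85). Their median deviation from the ICN2-negative mean was -3.40 in ICN2-positive replicate 1, -0.52 in replicate 2 and -0.76 in replicate 3. Their summed intensity was 77030 to 85370 in ICN2-negative and 9054 to 56390 in ICN2-positive cells, and no marker in the fit was at 0. Without replicate 1 the median was -0.61 and 6 of 9 passed, all lower, where 395 of all 12837 genes were lower and 373 higher. On replicates 2 and 3 the brightest Il6st probe set lay at -2.73 and -3.12, but this sets a single gene beside a list median. The markers of smallest p on all 6 arrays, Csf3r and Gfi1, differed by -1.72 and -1.90 without replicate 1. Il6ra 1452416_at differed by -2.00 and Il6st 1452843_at by -2.92 in the same setting. In that setting Dntt and Flt3, markers of other lists read below, differed by more in size than Il6st 1452843_at, at -4.75 and -3.66. The markers of next smallest p in their lists, Blnk and Tek, differed by -2.30 and 2.55. Whether the receptors differed beyond the markers was not tested. Cd34 and Fcgr3, surface markers that divide this gate into progenitor types, read 9.50 and 8.25 in ICN2-positive replicate 1, 11.60 to 11.99 and 11.75 to 11.99 in replicates 2 and 3, and 12.31 to 12.44 and 12.34 to 12.93 in ICN2-negative cells.

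The B lymphoid markers were also low: all 7 in the fit had lower means, and 1 of them fell (Dntt, the terminal transferase of lymphoid progenitors, adjusted p = 0.0481 in limma). The Dntt call was lost in all 6 fits with an array left out (adjusted p = 0.0532 to 0.17) and with no filter (adjusted p = 0.0546). The median deviation of the B lymphoid list was -3.00, -1.77 and -2.39 on ICN2-positive replicates 1 to 3. It was 1.48, -0.01 and -1.30 on the ICN2-negative replicates. The list's summed intensities were 889.6 to 2074 in ICN2-positive against 3721 to 14830 in ICN2-negative cells. Of 8 stem and multipotent markers in the fit, 1 fell (Flt3, a receptor of early lymphoid and dendritic progenitors). Means were lower in 4 and higher in 4, and the median difference was -0.07. Tek, the marker of next smallest p, differed by 1.90 ± 0.58 and did not pass. Without ICN2-positive replicate 1, 2 of the 8 passed as higher and 1 as lower, with a median of 0.25. The 6 T lymphoid markers had higher means, with a median difference of 1.36, and none passed. Those of smallest p, Cd3e and Cd7, differed by 1.35 ± 0.42 and 2.31 ± 0.77. Without ICN2-positive replicate 1, 1 of the 6 passed as higher, with a median of 1.13. This was Cd7, at 3.07 (adjusted p = 0.042, limma). Of 8 mast cell and basophil markers 3 rose (Mcpt1, Mcpt2 and Mcpt4, mast cell proteases), 4 had lower means (Fcer1a at -1.35, Mcpt8 at -0.39, Cpa3 at -0.32 and Ms4a2 at -0.03), and the median was 0.40. All 3 that rose lay below the 40th percentile on every ICN2-negative array and entered the fit only through the group in which they were high. Without ICN2-positive replicate 1 the 4 with lower means differed by 0.31, 0.92, 0.34 and 0.93, in the order given. In that fit 4 of the 8 passed as higher, the 3 proteases and Mcpt8, and the median was 0.93. Among all 12837 genes in that fit, 373 were higher and 395 lower. None passed among 6 erythroid, 5 megakaryocyte and 6 endothelial and stromal markers, with medians of 0.10, -0.22 and -0.12. The megakaryocyte markers of smallest p, Pf4 and Itga2b, differed by -2.94 ± 1.00 and 0.72 ± 0.45. Pdgfrb, the endothelial and stromal marker of smallest p, differed by 1.34 ± 0.35. Without ICN2-positive replicate 1 Pdgfrb differed by 1.74 and passed as higher (adjusted p = 0.00424, limma), and no other marker of these lists passed.

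**Figure D3:**
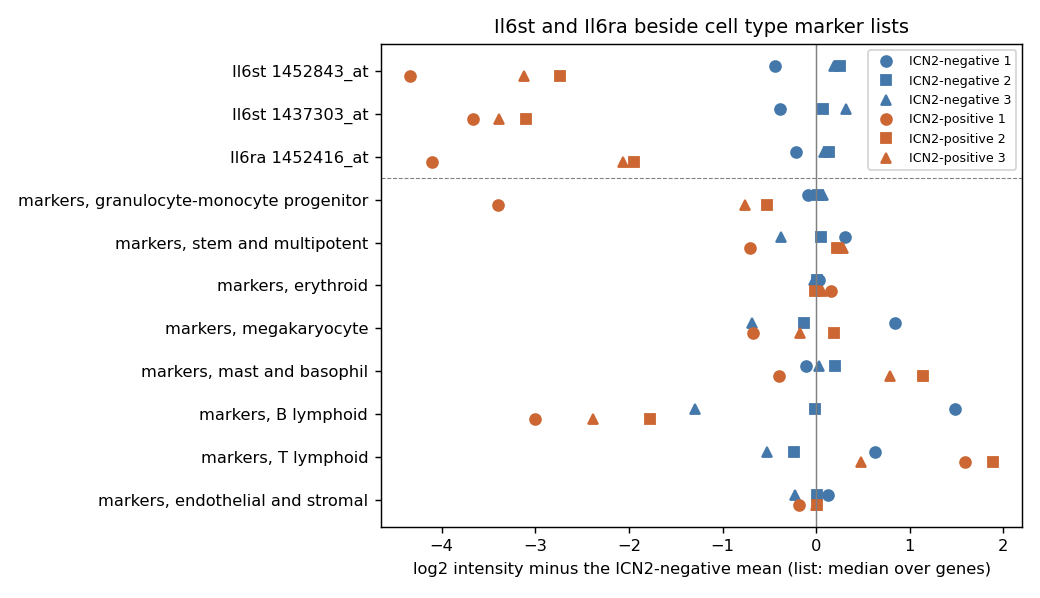
Log2 intensity minus the ICN2-negative mean on each array for the bright Il6st and Il6ra probe sets (above the dashed line) and for marker lists of cell types (median over genes in a list). On ICN2-positive replicates 2 and 3 Il6st and Il6ra lie at -3.39 to -1.94, the granulocyte-monocyte markers at -0.76 and -0.52, and the B lymphoid markers at -2.39 and -1.77. Single probe sets are set beside list medians here, and single markers can lie lower than their median.

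The rest of the pathway was read through lists of genes chosen by role, 1 probe set a gene, with p adjusted over all 12837 genes in limma. Over all genes 2.59% were higher and 1.78% lower, and the median difference was 0.02. Of 91 distinct pathway genes in the fit, 3 rose and 3 fell. One of those that rose, Il2ra, entered the fit only through the group in which it was high.

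Among ligands, 5 of 14 listed were in the fit, 1 fell and 4 did not pass, with a median difference of -0.15. Il12a, the p35 chain that joins Il12b or Ebi3 in cytokines related to this family, read 8.07, 8.78 and 7.99 in ICN2-negative and 4.79, 5.29 and 5.87 in ICN2-positive cells. All ICN2-positive values lay below all others. The difference was -2.96 ± 0.34 (adjusted p = 0.015, limma), and it was past the threshold in 4 of 6 fits with an array left out (adjusted p = 0.0184 to 0.0672), missing it without ICN2-negative replicate 2 or 3. Osm, which encodes oncostatin M, differed by 0.91 ± 0.33 (adjusted p = 0.151). Ctf1, cardiotrophin 1, differed by 0.57 ± 0.26 and Ebi3, a chain of interleukin 27, by -0.87 ± 0.48, neither past the threshold. Clcf1, a ligand of the ciliary neurotrophic factor receptor, differed by -0.15 ± 0.13. Interleukin 6 itself, read by 1 probe set, was dim in both groups (3.47 and 3.58) and not in the fit, and neither were Lep, Lif and Il11. The brighter Lif probe set had means of 4.94 in ICN2-negative and 5.44 in ICN2-positive cells.

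None of 5 measured receptors related to gp130 passed in limma, with a median of -0.01. Csf3r, the granulocyte colony-stimulating factor receptor, read 8.57, 9.03 and 9.22 in ICN2-negative and 5.59, 7.37 and 7.07 in ICN2-positive cells. Its groups did not overlap and replicate 1 was again the lowest. The difference was -2.26 ± 0.49 (adjusted p = 0.0651, limma), and without ICN2-positive replicate 1 it was -1.72 (adjusted p = 0.0228). Il12rb2 and Il12rb1, the chains of the interleukin 12 receptor, differed by 0.53 ± 0.17 and 0.36 ± 0.20, and Il12rb1 passed without ICN2-positive replicate 1. Crlf3 differed by -0.38 ± 0.15 and Il31ra, which pairs with Osmr, by -0.01 ± 0.31.

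Of 16 JAK, STAT and adaptor genes in the fit, 1 rose and none fell, with a median of -0.04. Sos1, the exchange factor that links receptors to Ras, read 10.85, 10.64 and 10.64 in ICN2-negative and 11.57, 11.44 and 11.32 in ICN2-positive cells. The difference was 0.73 ± 0.10 (adjusted p = 0.0245, limma). It passed in 2 of 6 fits with an array left out (adjusted p = 0.0327 to 0.112), those without ICN2-negative replicate 1 or ICN2-positive replicate 1. The other Sos1 probe sets differed by 0.22 to 0.68 and none passed, and as the mean of its probe sets it missed the threshold (adjusted p = 0.0709, limma). The adaptors Shc1 and Gab1 differed by -0.32 ± 0.09 and -0.40 ± 0.12, Stat2 by -0.43 ± 0.13 and Stat4 by -0.91 ± 0.36, and none passed. Of the kinases and STAT that gp130 uses, named here after their values were seen, Jak1 differed by 0.14 ± 0.09, Jak2 by -0.09 ± 0.09, Tyk2 by -0.05 ± 0.10 and Stat3 by -0.10 ± 0.19, and none passed. The 4 Stat3 probe sets ranged from -0.45 to 0.15.

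Of 16 feedback inhibitors, 1 rose and none fell, with a median of 0.18. Socs5, a suppressor of cytokine signalling, read 8.01, 7.94 and 7.84 in ICN2-negative and 8.61, 9.03 and 9.05 in ICN2-positive cells. The difference was 0.97 ± 0.14 (adjusted p = 0.0268, limma), and it passed only without ICN2-positive replicate 1 among fits with an array left out (adjusted p = 0.00728, otherwise 0.0666 to 0.116). Its other probe set differed by 0.93 and did not pass. Cish, a suppressor induced by STAT5, lay at 7.06 ± 0.67 in ICN2-negative and 8.99 ± 0.66 in ICN2-positive cells (SD, n = 3) and did not pass (adjusted p = 0.0757, limma). Socs4, Ptpn6 and Ptpn1 differed by 0.38 ± 0.08, 0.38 ± 0.09 and 0.38 ± 0.11. Socs3, the inhibitor that binds gp130, was named for that role after its values were seen, and differed by -0.31 ± 0.30. Its other probe sets differed by -0.26 and 0.01, and none passed. Group means of the Socs3 probe sets were low, at 5.59 to 6.23, and Socs3 was not in the fit with the filter at the 60th percentile.

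Of 29 measured genes that STAT3 can induce, 24 had lower means in ICN2-positive cells, 1 fell and 28 did not pass, with a median of -0.62. Cebpd, a transcription factor of myeloid cells, read 8.51, 8.99 and 8.71 in ICN2-negative and 6.63, 7.56 and 7.25 in ICN2-positive cells. The difference was -1.59 ± 0.26 (adjusted p = 0.0377, limma), and 2 of 6 fits with an array left out kept it past the threshold (adjusted p = 0.0247 to 0.143), those without ICN2-positive replicate 1 or 2. Its other probe set differed by -2.11 and did not pass. Fosl2, an AP-1 subunit, differed by -1.88 ± 0.38, Fgl2 by -2.17 ± 0.47, the transcription factor Klf4 by -1.92 ± 0.43 and the growth factor Vegfa by -0.83 ± 0.16, and none passed. The other Klf4 probe set differed by -2.48 and passed (adjusted p = 0.0307, limma over all probe sets). Those of Fosl2, Fgl2 and Vegfa differed by -0.28, -1.67 and -0.06 and did not pass. As the mean of probe sets Klf4 and Fgl2 passed (adjusted p = 0.034 and 0.0447, limma), and Fosl2 and Vegfa did not. The list's median deviation was -1.19 in ICN2-positive replicate 1 and -0.33 and -0.44 in replicates 2 and 3, the same order of arrays as in the granulocyte-monocyte markers. With replicate 1 left out, 6 of the 29 fell and the median was -0.36, where 395 of all 12837 genes fell.

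None of 8 genes for shedding and turnover of the receptors passed in limma, with a median of -0.11. Adam17, a protease that releases the interleukin 6 receptor from the surface, differed by -0.27 ± 0.09, Adam10, a related protease, by -0.12 ± 0.06, Rhbdf1, a partner of Adam17, by 0.51 ± 0.18, Sorl1, which sorts receptors in the cell, by -1.28 ± 0.98 and the ubiquitin ligase Cbl by -0.13 ± 0.11.

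Of 13 class I cytokine receptors outside the family, 1 rose and 1 fell, with a median of -0.68 that was -0.11 without ICN2-positive replicate 1, where 1 was higher and 4 lower. Il2ra, the interleukin 2 receptor alpha chain, read 4.16, 4.02 and 4.81 in ICN2-negative cells, all below the 40th percentile, and 8.39, 7.94 and 6.77 in ICN2-positive cells (adjusted p = 0.0231, limma). It entered the fit only through the ICN2-positive arrays, where it was high, so its call is no support, and it was not in the fit with the filter at the 60th percentile. It passed in 2 of 6 fits with an array left out, those without ICN2-positive replicate 1 or 3 (adjusted p = 0.0233 to 0.108). Il21r, the interleukin 21 receptor, read 8.60, 8.53 and 9.04 against 7.38, 7.69 and 7.68, a difference of -1.14 ± 0.17 (adjusted p = 0.028, limma), and passed only without ICN2-positive replicate 1 among such fits (adjusted p = 0.0393, otherwise 0.0629 to 0.0893). Il3ra and Csf2ra, receptor chains for interleukin 3 and granulocyte-macrophage colony-stimulating factor, differed by -1.17 ± 0.24 and -1.26 ± 0.30, and Il4ra by -1.19 ± 0.49, and none passed.

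**Figure D4:**
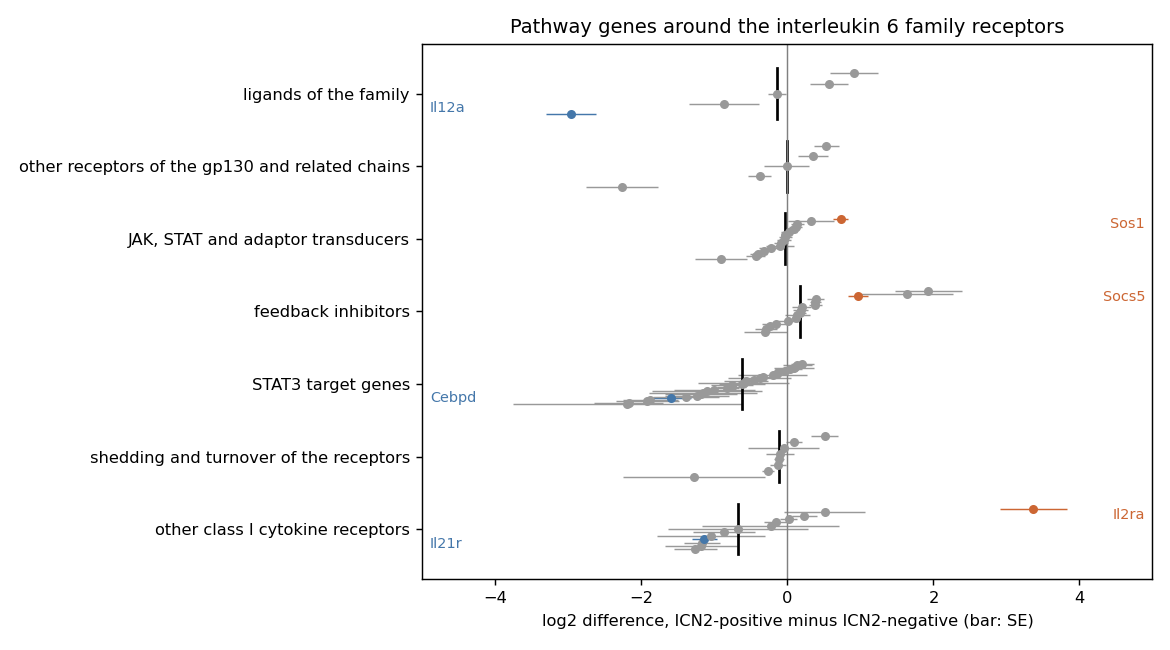
Log2 difference, ICN2-positive minus ICN2-negative, of each pathway gene in the fit (point, with its limma standard error), grouped by role; black lines are list medians, and coloured points are genes past an adjusted p of 0.05, named at the side (orange higher, blue lower). Il12a is the most negative coloured point, and most STAT3 target genes lie left of 0, with a median of -0.62.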

How the data were processed

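RNA of 6 sorted cell samples (5 ng of total RNA each, amplified and biotin-labelled, per the labels' protocols) was read on Affymetrix mouse arrays. The authors deposited 1 intensity per probe set and array, made with RMA per the submitters' processing notes (version not given in the sources used here). RMA corrects background, equalises the arrays' distributions and summarises probes, so a change in total RNA per cell is not visible, and the table holds neither a measured background nor detection calls. The deposited intensity was linear, and log2 was taken here. Of 45101 probe sets, 64 were controls, 34958 had 1 gene by the platform annotation, 932 several and 9211 none listed.

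Log2 values were fitted with limma (version 3.58.1, R version 4.3.3; lmFit, then eBayes, without covariates; threshold 0.05 after Benjamini-Hochberg adjustment) over all probe sets or over the brightest probe set a gene. Groups came from the labels. Differences are ICN2-positive minus ICN2-negative. Members and lists were chosen with earlier results of these data known. Named genes were all member probe sets, up to 5 genes of smallest p and all past the threshold in each pathway list, up to 2 of each marker list, and the 5 genes most like Il6st. Kit, Itgam, Notch2, Cd34, Fcgr3, Mcpt4, the mast cell markers with lower means, the core kinases with Stat3 and Socs3, and the ligands Il6, Lep, Lif and Il11 were named after their values were seen. The fit was tested on simulated data. Alternatives were another normalization, another filter or none, a trended robust variance, weighted arrays, averaged probe sets, a replicate term and leaving out each array.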

Additional observations from a re-analysis of the deposited data

How the results depend on the processing

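The Il6st, Il6ra and Il27ra differences kept their direction and moved by less than 1 SD of the arrays in all 11 alternatives run for each. Leaving out 1 of 3 arrays cannot move a difference that far, and cannot turn its direction where the groups do not overlap. The replicate term leaves these differences unchanged by design. Nothing is therefore read from these alternatives about stability, and only the ranges are given. With 1 array left out, Il6st 1452843_at ranged from -3.73 to -2.92, Il6st 1437303_at from -3.58 to -3.23, Il6ra 1452416_at from -3.08 to -2.00 and Il27ra from 0.73 to 1.14. Counts of calls moved more. Against 728 probe sets past the threshold, the count was 268 with the replicate block (the replicate number as a term), 3970 with array weights, 1252 with trend and robust eBayes, and 95 to 860 with 1 array left out. Against 560 genes, it was 340 with the replicate block, 3262 with array weights and 99 to 768 with 1 array left out. Against 6 pathway genes called, it was 28 with array weights, 11 with trend and robust eBayes and 0 to 16 with 1 array left out. The cause was not tested. The replicate numbers do not pair the samples by any label, and deviations of same-numbered arrays correlated at 0.18, 0.10 and 0.09. Under the replicate block both bright Il6st probe sets remained past the threshold, and Socs5 (adjusted p = 0.069), Il2ra (0.069) and Il21r (0.0503) did not. With array weights 5 member probe sets passed in place of 2, and with no filter 3 of all 17, the third being Il6st 1460295_s_at. Of the 5 genes most like Il6st, 0 were shared when the second Il6st probe set was used. With 3 arrays a group and no measured background, levels near the 40th percentile set no bound on a transcript.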
